A study of Arabidopsis thaliana with 6 samples.

Results

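The introns of genes with many introns were described in RNA-seq libraries of Arabidopsis thaliana. A gene was taken as having many introns when at least 20 rows of the deposited intron table, on the nuclear chromosomes 1 to 5, were marked as its introns, and of these rows those of 80 to 499 bases were kept. This gave 11294 introns in 505 genes, of 120678 nuclear intron rows in 22196 genes. The median gene of the set held 23 intron rows and the richest, ATM, held 78, while 1612 shorter and 258 longer rows of the same genes were left out. Introns were numbered from the 5' end of the gene over all its rows, with the strand taken from the junction table. For 7 genes no strand was found, so 138 introns have no number.

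The 6 libraries came from whole seedlings of the Col-0 ecotype, 3 of the wild type (WT) and 3 of a prmt5 mutant whose allele the labels do not name. Seeds of both genotypes spent 4 days at 4 °C in darkness, and plants were then raised for 9 days in constant white light at 22 °C. Polyadenylated RNA was sequenced after random priming. Gene counts per library ran from 38564256 to 75461631, and counts over the 11294 introns from 36407 to 118169. Both shoot markers such as RBCS1A (AT1G67090) and root markers such as SCR (AT3G54220) were detected in every library. The lowest count of the 9 markers in any library was 50.

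The spliceosome removes an intron after the U1 snRNP has paired with the 5' splice site, a short stretch made of the last exon and first intron bases. PRMT5 is an arginine methyltransferase that places symmetric dimethyl marks on Sm proteins of the spliceosomal snRNPs, and plants without it are known for retained introns. Genes with many introns encode mostly large proteins, among them kinases of the ATM and TOR type, RNA polymerase subunits, myosins, Dicer enzymes and aminoacyl-tRNA synthetases. An intron that stays in the mRNA of such a gene is 1 among many that must all be removed.

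The 5' splice sites of the 8 introns with the smallest p for higher usage in prmt5, at most 1 per gene, are shown to let the values below be read against them. Each line gives the last 3 exon bases in lower case and the first 6 intron bases in capitals, 5' to 3', from the RefSeq TAIR10.1 sequence. The score in the next lines of text sums log2 odds over these 9 bases, so that a higher score means a site nearer to the common one.
AT5G08650 intron 11 (chr5:2809634-2809642, minus strand): ccaGTACTG
GLU1 intron 8 (chr5:1132799-1132807, plus strand): acaGTAAAT
AT2G47410 intron 3 (chr2:19449827-19449835, plus strand): gtaGTAATT
AT1G63770 intron 3 (chr1:23664160-23664168, minus strand): cctGTGATT
AT1G01320 intron 1 (chr1:130366-130374, minus strand): tcgGTAATT
VPS35C intron 1 (chr3:19049232-19049240, minus strand): atcGTACCA
EDD1 intron 22 (chr3:17768468-17768476, plus strand): cagGTTTTT
MYA2 intron 25 (chr5:17660808-17660816, minus strand): aggGTGTGA
Their scores were 1.63, 3.59, 3.16, 2.62, 5.98, 0.15, 6.85 and 5.36 in this order. The lowest of the 8 was that of VPS35C and the highest that of EDD1.

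Consecutive introns of 1 gene, EMB2247, are shown next because raised and uncalled introns lie side by side in it. The lines run from intron 3 to intron 10, all on the plus strand of chromosome 5, with the same use of capitals.
EMB2247 intron 3, raised (chr5:5485994-5486002): gagGTTGTG
EMB2247 intron 4, raised (chr5:5486312-5486320): cagGTTCAT
EMB2247 intron 5, raised (chr5:5486659-5486667): aaaGTATGC
EMB2247 intron 6, raised (chr5:5487046-5487054): gtcGTAAGG
EMB2247 intron 7, not called (chr5:5487342-5487350): aagGTAAGC
EMB2247 intron 8, not called (chr5:5487502-5487510): ttgGTGTGT
EMB2247 intron 9, raised (chr5:5487647-5487655): aagGTACTG
EMB2247 intron 10, not called (chr5:5488071-5488079): gagGTAGGT
Their scores were 2.92, 6.80, 5.50, 3.29, 10.50, 5.27, 6.64 and 8.60. Intron 7 has the highest score of the 8, and its usage change did not pass the threshold. Intron 8 was not called either, although its score of 5.27 is below those of the raised introns 4, 5 and 9.

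Whole introns are given for 3 of the 8 raised introns, in capitals the first 6 and the last 2 bases, which show what is kept when the intron stays in the mRNA. They are short, at 83, 89 and 111 bases, and all lie in the coding region.
AT5G08650 intron 11 (chr5:2809557-2809639, minus strand): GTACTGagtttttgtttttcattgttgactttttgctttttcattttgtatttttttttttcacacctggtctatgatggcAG
GLU1 intron 8 (chr5:1132802-1132890, plus strand): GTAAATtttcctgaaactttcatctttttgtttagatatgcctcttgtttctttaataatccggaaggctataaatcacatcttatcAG
VPS35C intron 1 (chr3:19049127-19049237, minus strand): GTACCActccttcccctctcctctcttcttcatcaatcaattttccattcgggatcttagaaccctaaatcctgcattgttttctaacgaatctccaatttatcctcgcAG

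PRMT5 itself, listed as SKB1 (AT4G31120, chr4:15132011-15136639), has 21 intron rows and is a member of the set. Its level was 30.2, 28.7 and 31.1 CPM (counts scaled to the library size) in WT and 34.7, 28.9 and 33.1 CPM in prmt5 (log2 change 0.11, SE 0.07, edgeR adjusted p 0.30). The gene count did not separate the genotypes and so does not check the labels. Intron 20 (chr4:15132630-15132724, coding region) did separate them. Its usage, the intron count as a percent of the gene count, was 0.20%, 0.44% and 0.44% in WT and 4.36%, 4.64% and 4.99% in prmt5 (log2 change 3.70, SE 0.30, adjusted p 5.42e-13). Reads across the junction that removes this intron numbered 104, 83 and 116 in WT and 5, 3 and 17 in prmt5. Of its 7 introns tested 2 were raised, and the other, intron 13, lost its call in 7 of 14 alternative settings. SKB1 overlaps AT4G31115, so its counts are uncertain.

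Over all 11294 introns, usage was higher in every prmt5 library than in every WT library. The summed intron count was 2.91%, 3.09% and 2.95% of the summed gene counts in WT replicates 1, 2 and 3, and 4.76%, 4.65% and 4.35% in prmt5. The groups did not overlap, and the means were 2.99% ± 0.097 and 4.59% ± 0.21 (SD, n = 3; two-sided exact permutation p 0.1, the smallest that 3 against 3 libraries allow). Set against the reads across their own annotated junctions, which 10645 of the introns have, the difference was 3.25 percentage points. The increase was spread over many genes. The gene that gave the most, EDD1, made up 3.69% of the difference, and the 10 genes that gave the most made up 22.6%. With the 10 largest single introns 11.9% was covered. These genes and introns were picked by their increase and are a description. Of all 11294 introns, 6518 had a higher mean usage in prmt5 than in WT, and 1069 had no count in any library. The same share over other genes is not given here, so this count shows nothing particular to the set.

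Genes with many introns were set beside 85973 introns of the same lengths in 16932 genes with 2 to 19 introns. The log2 ratio of prmt5 to WT usage was 0.39 for introns of genes with 1 intron, 0.46 with 2 to 4, 0.54 with 5 to 9, 0.54 with 10 to 19 and 0.62 with 20 or more. Per library, the log2 ratio of usage in genes with many introns to that in genes with 2 to 19 was 0.33, 0.27 and 0.32 in WT and 0.39, 0.39 and 0.39 in prmt5. A gene with more introns sums more of them over 1 gene count, so the level of this ratio does not measure retention per intron. Set against own junction counts, its mean was below 0, at -0.29 in WT and -0.19 in prmt5 (difference 0.10, exact permutation p 0.1). With gene counts, the difference of 0.08 had an exact permutation p of 0.1. It was 0.015 as a mean over genes (p 0.3) and -0.0096 (p 0.6) for genes with at least 25 introns. Whether the shift was larger in genes with many introns thus depended on how genes were weighted and where the limit was set. Just inside the limit, genes with 20 rows had a usage of 3.44% ± 0.14 in WT and 5.18% ± 0.19 in prmt5, and genes with 21 rows 2.91% ± 0.091 and 5.33% ± 0.25. Just outside it, genes with 19 rows had 2.80% ± 0.096 and 4.26% ± 0.19, and genes with 18 rows 2.84% ± 0.13 and 4.25% ± 0.25.

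Summed per gene, 474 genes had a mean of at least 50 gene counts. In 321 of them (67.7%) every prmt5 library lay above every WT library, against 48.2% of genes with 2 to 19 introns. In 2 genes (0.42%) every prmt5 library lay below, against 1.05%. The median gene had a usage of 3.15% in WT and 4.64% in prmt5. A gene with many introns sums more introns, so the counting error of its total is relatively smaller, and the part of this in the higher share was not tested.

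Single introns were tested with edgeR's quasi-likelihood test, with the gene count as offset and p-values adjusted over all 53291 introns of the genome that passed the filter (a mean of at least 5 counts in a gene with a mean of at least 50). Of the 11294 introns, 3622 (32.1%) in 431 genes passed the filter, while 1069 had no count in any library. At an adjusted p under 0.05, 780 were raised in prmt5, 21.5% of those tested against 21.6% of all introns tested. Another 17 were lowered, 0.47% against 0.518%. Both shares were near those of all introns tested. The lowered introns numbered 11 without WT replicate 1 and 10 without prmt5 replicate 1. The median log2 change was 0.31, against 0.37 over all introns tested. With that shift of 0.37 taken out, 521 introns were called higher and 77 lower, a setting added once the data had been seen. The filter uses all libraries, so some introns passed it only through their prmt5 counts. With the filter on WT counts alone 3047 introns were tested and 417 were raised. Shares over all introns are not given for this filter or for the setting without the shift. Their counts therefore cannot be set beside the 21.6% and 0.518%.

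The raised introns are few among the introns of the set but carry much of its change. They were 6.91% of the 11294 introns and held 13.97% ± 0.64 of the intron counts in WT and 36.5% ± 0.82 in prmt5, a description since the same counts chose them. The other 10514 introns had a summed usage of 2.57% ± 0.064 in WT and 2.91% ± 0.096 in prmt5, with no overlap between the groups. The same libraries chose which introns were left, so this too is a description and no test.

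The number of raised introns per gene ran from none to 11. No raised intron was found in 108 of the 431 genes with a tested intron, 111 had 1, 83 had 2 and 70 had 3, so that 264 genes had 1 to 3. At least 1 was raised in 323 genes (74.9%). That share followed the number of tests, from 45.9% of genes with 1 to 4 tested introns to 95.4% with 15 or more. Over the same classes the share of tested introns raised went from 27.4% to 18.7%. No such count over all genes is given here. In 28 genes 5 or more were raised, a count of 18 without WT replicate 1 and 12 with the filter on WT counts alone. Among 166 genes with at least 10 tested introns, 154 had a raised one, and in 3 more than 50% of the tested introns were raised. The median share per gene there was 18.8% and the highest was 64.7%. In 15 genes raised and lowered introns occurred together.

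**Figure D1:**
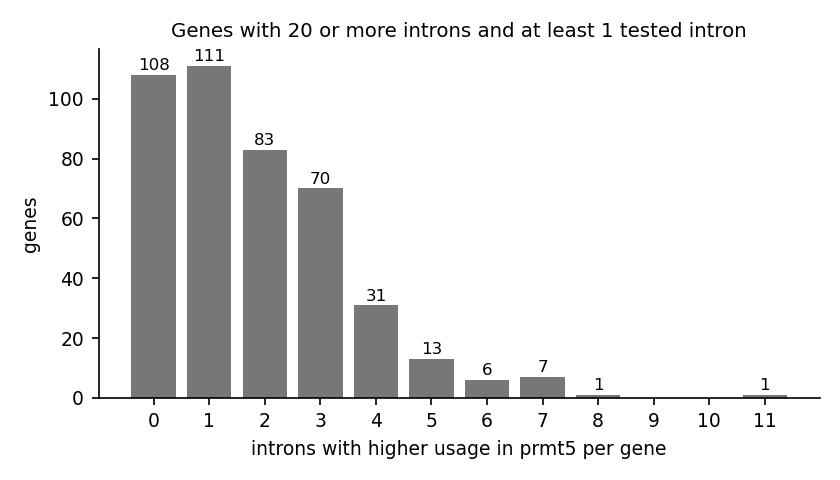
Number of genes with 20 or more introns (y axis, genes) by the number of introns with higher usage in prmt5 at an adjusted p under 0.05 (x axis), for the 431 genes with at least 1 tested intron. Bars carry their count, and most genes have 0 to 3 raised introns while 1 gene has 11.

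Raised introns were not evenly spread among neighbours. Where the next intron upstream was raised (345 pairs), 29.0% of introns were raised, and where it was not (1299 pairs), 18.3% were. For introns 5 places apart the shares were 22.9% and 19.03%. These are descriptions across introns of shared genes, and introns of 1 gene share its counts as denominator.

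Usage in prmt5 differed with the strength of the 5' splice site. The 10645 introns with an own junction were divided into 4 classes of about equal size by their score, with no filter on counts. In class 1, the weakest sites, usage was 0.65%, 0.71% and 0.66% in WT and 1.66%, 1.61% and 1.49% in prmt5, a ratio of means of 2.36. In class 4, the strongest sites, it was 0.65%, 0.72% and 0.66% in WT and 0.76%, 0.75% and 0.70% in prmt5, a ratio of 1.09. The groups were far apart in class 1 and overlapped in class 4. Classes 2 and 3 had ratios of 1.69 and 1.23.

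In WT, introns behind weak and strong sites had much the same usage, and in prmt5 they did not. The log2 ratio of usage between classes 1 and 4 was 0.01, -0.03 and -0.01 in WT and 1.13, 1.11 and 1.09 in prmt5. The difference of 1.12 between the genotypes had an exact permutation p of 0.1, the smallest possible, and lay between 1.11 and 1.13 with any 1 library left out. In genes with 2 to 19 introns the same difference was 0.87 (p 0.1). The difference between both sets of genes, 0.26, was of the same sign in the alternatives run, from 0.14 for genes with at least 25 introns to 0.27 without overlapping genes, and its exact permutation p was 0.1. The score pattern is known from earlier results of these data, so its appearance here is no independent evidence.

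**Figure D2:**
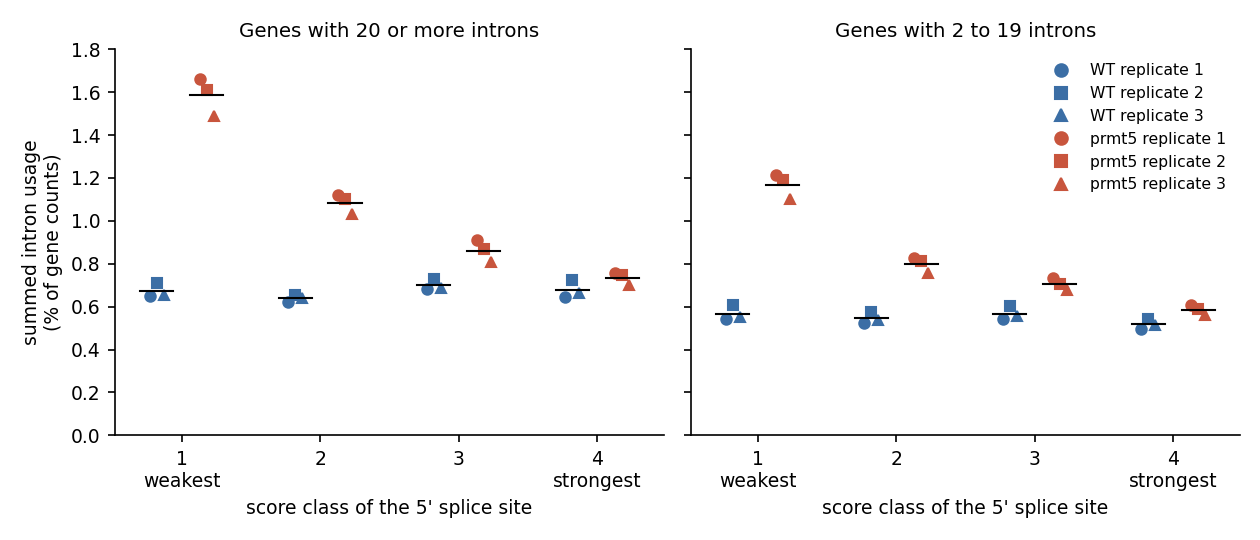
Summed intron usage as a percent of gene counts (y axis) by score class of the 5' splice site (x axis, 1 the weakest and 4 the strongest), for genes with 20 or more introns (left) and with 2 to 19 introns (right). Each point is a library, offset by genotype and replicate, and black lines are group means; in the left panel prmt5 falls from 1.59% in class 1 to 0.73% in class 4 while WT stays between 0.64% and 0.70%.

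The bases at the site showed where raised and other introns parted. The last exon base was G in 64.6% of 768 raised and 88.3% of 2759 other tested introns with a score. The base before it was A in 53.9% and 69.7%, and the third intron base was A in 51.2% and 65.2%. At the fifth intron base, G was found in 43.0% and 48.2%. The mean score was 5.31 ± 2.00 (SD) for raised and 7.19 ± 2.04 for other introns. Within genes that held both kinds, the raised introns had the lower mean score in 279 of 307 genes (90.9%), with a median difference of -1.85. The 3' splice site score was 7.02 in both, the GC content 33.4% and 33.7%, and the median length 133 and 112 bases. These shares describe introns that passed the count filter over all libraries. Some raised introns passed it only through their prmt5 counts, so the shares and scores are descriptions and no test. In genes with 2 to 19 introns the mean score was 5.33 for raised and 7.14 for other tested introns.

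Of the introns tested, 44.0% were raised in score class 1, 22.6% in class 2, 11.9% in class 3 and 5.05% in class 4. For genes with 2 to 19 introns the shares were 43.3%, 23.8%, 12.8% and 5.66%. These shares too are over introns that passed the filter on all libraries, 960 of 2668 in class 1 and 812 of 2660 in class 4. Some passed only through their prmt5 counts, so the shares are descriptions and no test. By length, the log2 ratio of prmt5 to WT usage was 0.57 for introns of 80 to 99 bases, 0.68 for 100 to 149, 0.62 for 150 to 249 and 0.63 for 250 to 499. Length classes thus differed far less than score classes.

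Order along the gene was examined next, with a limit set by the libraries. Exon bin counts were lower in the 5' stretch than in the 3' stretch in all of them, most in WT replicate 2 and prmt5 replicate 1. The introns of a gene were divided by order into 3 stretches of equal number, and its exon bins likewise by their own order. The log2 ratio of exon bin counts in the first to those in the last stretch was -0.60, -1.43 and -0.77 in WT and -1.07, -0.66 and -0.62 in prmt5. Bin counts were not divided by bin length, so the differences between libraries can be read but not the level. The intron counts followed with -0.38, -0.98 and -0.53 in WT and -0.65, -0.38 and -0.38 in prmt5. The groups overlapped (difference 0.16, exact permutation p 0.7), and without WT replicate 2 the difference was -0.014. Relative to the exon bins the difference was 0.01 (p 0.8). The first intron against all later ones gave a difference of -0.06 (p 0.8), which was positive without WT replicate 1 (0.064) or prmt5 replicate 1 (0.04). No preference for the first introns or the 5' stretch was therefore detectable.

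Set against the reads across the junctions of the same introns, which share any fall in coverage, the change was smallest at the 3' end of the gene. Over 5 segments with equal numbers of introns, from the 5' end, the log2 ratio of prmt5 to WT was 0.68, 0.67, 0.81, 0.76 and 0.55. In segment 5 the intron counts were 5.64%, 5.85% and 5.83% of the junction counts in WT and 8.48%, 8.63% and 8.16% in prmt5. In segment 3 they were 5.01%, 5.74% and 5.24% in WT and 9.88%, 9.43% and 8.78% in prmt5. The groups did not overlap in either. The log2 ratio of segment 5 to the earlier ones was 0.20, 0.06 and 0.21 in WT and -0.12, -0.02 and 0.02 in prmt5, a difference of -0.19 (exact permutation p 0.1).

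That comparison was added after the values had been seen. With prmt5 replicate 1, 2 or 3 left out its difference was -0.15, -0.20 and -0.22, each with an exact permutation p of 0.2. With any 1 WT library left out p stayed at 0.1. As a mean over genes, with gene counts as denominator, the difference was -0.27 (p 0.2). It was -0.20 with the steepest libraries, WT replicate 2 and prmt5 replicate 1, left out, where 2 against 2 libraries allow no p under 0.33. Segment 5 also had the highest mean 5' splice site score, 7.17 against 6.73 in segment 1. In score class 1 the log2 ratio of prmt5 to WT was 1.06 in segment 5 and 1.33 before it, and in class 4 0.08 and 0.16. In class 2 the order was the other way, 0.80 and 0.74. Of the introns tested, 15.9% were raised in segment 5 and 21.9%, 22.7%, 26.8% and 22.8% in segments 1 to 4. More introns reached the filter in segment 5 (975 of 2213, against 517 of 2217 in segment 1). Some introns passed the filter only through their prmt5 counts, so these shares are descriptions and no test.

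**Figure D3:**
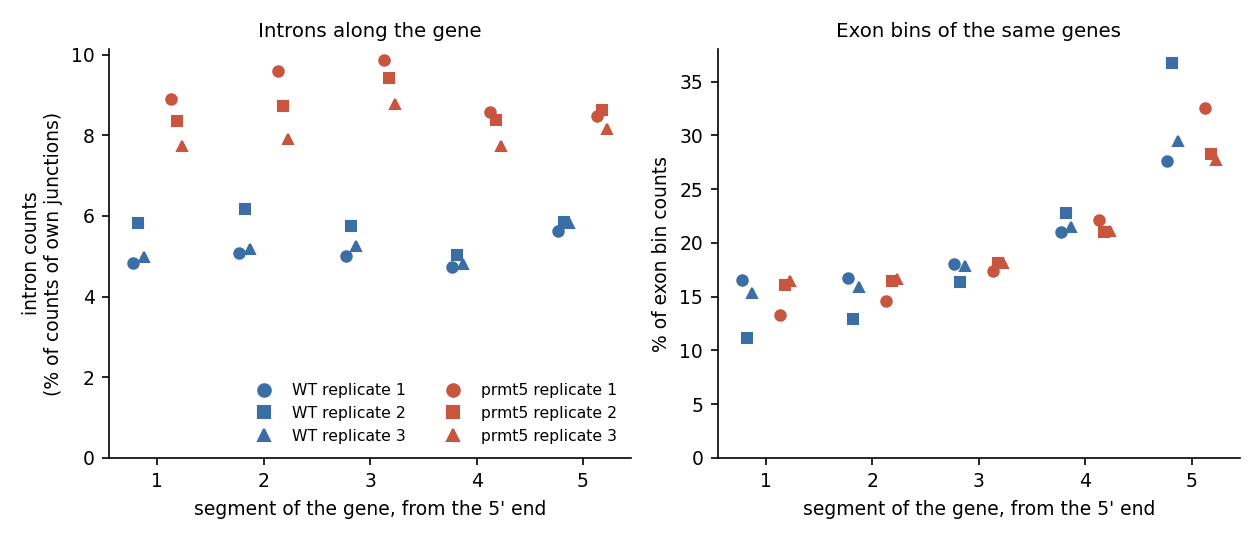
Left, intron counts as a percent of the counts of the junctions that remove the same introns (y axis) by segment of the gene, 1 at the 5' end to 5 (x axis). Right, share of exon bin counts of the same genes in each segment, with bins divided by their own order and counts not divided by bin length. Each point is a library; prmt5 lies above WT in every segment on the left, and on the right WT replicate 2 and prmt5 replicate 1 have the smallest shares of their group in segment 1 and the largest in segment 5.

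Among single introns, the smallest p was found in AT5G08650 (chr5:2806323-2813264), annotated as a small GTP-binding protein. Counts of intron 11 were 35, 36 and 66 in WT against 823, 629 and 996 in prmt5. As usage this was 0.25%, 0.46% and 0.40% against 6.30%, 6.04% and 6.62% (log2 change 4.13, SE 0.15, edgeR adjusted p 2.32e-23). Every prmt5 library lay above every WT library. The junction that removes it had 623, 325 and 756 reads in WT and 176, 185 and 271 in prmt5. All 21 introns of the gene were tested and 7 were raised. Of these calls, 1 was lost in 8 of 17 alternative settings and 1 in 3 of 17. The gene itself was at 213 ± 14 CPM in WT and 237 ± 17 in prmt5 (adjusted p 0.16). Its intron 10, next to intron 11, went from 0.27% ± 0.043 to 0.57% ± 0.082, and intron 9, at 0.10% ± 0.030 and 0.20% ± 0.060, was not called.

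GLU1 (AT5G04140), the main ferredoxin-dependent glutamate synthase of leaves, showed the second largest fold change of these 8. Counts of intron 8 were 7, 1 and 5 in WT against 245, 208 and 300 in prmt5. The gene count was so large that even in prmt5 its usage was 0.23%, 0.19% and 0.19%, with a log2 change of 6.08 (SE 0.26, adjusted p 6.43e-22). The prmt5 libraries were all far above WT. VPS35C (AT3G51310), a subunit of the retromer that recycles cargo from endosomes, had intron 1 counts of 2, 0 and 2 in WT against 152, 112 and 170 in prmt5. Its usage was 0.03% ± 0.026 and 2.89% ± 0.086 (log2 change 6.24, SE 0.36, adjusted p 1.58e-17).

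EDD1 (AT3G48110), the plastid glycine-tRNA ligase, had 7 raised introns of 26 tested, and 1 of these calls was lost in 4 of 15 alternative settings. With the filter on WT counts, 5 of these 7 could be tested, and all 5 were raised. Counts of intron 22 were 62, 36 and 49 in WT against 595, 425 and 678 in prmt5. That is a usage of 0.82% ± 0.18 against 4.81% ± 0.27 (log2 change 2.60, SE 0.15, adjusted p 3.78e-17). Intron 10 had 0.40%, 0.49% and 0.32% in WT and 2.89%, 2.70% and 2.58% in prmt5, and intron 6 had 0.05% ± 0.0067 and 0.91% ± 0.091. Groups did not overlap in any of these 3 introns. Introns 7, 8 and 9, between the latter, were not called, with adjusted p of 0.83, 0.37 and 0.31. Expression of the gene was 104 ± 8.3 CPM in WT and 215 ± 2.8 CPM in prmt5, a rise of 1.05 on the log2 scale (SE 0.07, adjusted p 3.2e-06).

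The other 4 introns of the 8 were intron 3 of AT2G47410 (a WD40 protein), intron 3 of AT1G63770 (a peptidase of the M1 family), intron 1 of AT1G01320 (a TPR protein) and intron 25 of MYA2 (AT5G43900, a myosin XI). Their usage went from 0.69% ± 0.10 to 6.63% ± 0.18, from 0.10% ± 0.023 to 1.36% ± 0.11, from 0.019% ± 0.0074 to 0.65% ± 0.16 and from 0.062% ± 0.031 to 1.96% ± 0.17. Intron 3 of AT2G47410 is an intron in 2 of 6 annotated transcripts and that of AT1G63770 in 5 of 7, so part of their counts can be exon of the others. Intron 1 of AT1G01320 lies in the 5' UTR, and the others lie in the coding region. AT1G63770, AT1G01320 and MYA2 overlap another gene, and their counts are uncertain. All 8 kept their call in the alternative settings run for them. The introns of GLU1, VPS35C and MYA2 had a mean under 5 counts in WT. They passed the filter only through their prmt5 counts, so the setting with the filter on WT counts could not be run for them.

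EMB2247 (AT5G16715, chr5:5485353-5493520), a valyl-tRNA synthetase needed for embryo development, had the most raised introns, 11 of 17 tested. With the filter on WT counts, 9 of these 11 could be tested, and all 9 were raised. Without WT replicate 3, calls were lost in introns 9, 13, 14 and 17, and 7 of the 11 remained, as many as in PHYLLO. Intron 6, whose site is shown above, had 0.27%, 0.42% and 0.39% in WT and 2.96%, 3.41% and 3.26% in prmt5 (log2 change 3.18, SE 0.21, adjusted p 6.21e-16). Its junction had 152, 71 and 178 reads in WT and 61, 46 and 84 in prmt5. Intron 5 went from 0.22% ± 0.064 to 1.56% ± 0.27 and intron 19 from 0.38% ± 0.16 to 1.75% ± 0.19. Intron 7, between raised introns, was at 0.12%, 0.12% and 0.08% in WT and 0.08%, 0.16% and 0.14% in prmt5, and the groups overlapped. Intron 10, at 0.11% ± 0.026 and 0.09% ± 0.039, was not called either. The weakest call, intron 9 at an adjusted p of 0.049, was lost in 12 of 15 alternative settings, intron 14 in 9 of 17 and intron 17 in 6 of 17. The gene was at 91.7 ± 7.1 CPM in WT and 98.7 ± 4.9 in prmt5 (adjusted p 0.29).

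PHYLLO (AT1G68890), a fused enzyme of phylloquinone synthesis, had 8 raised introns of 15 tested and 1 lowered. Among its raised introns, 1 lost its call in 5 of 15 alternative settings. The raised ones included intron 17, from 0.10% ± 0.048 to 1.06% ± 0.13 (adjusted p 2.62e-11), and intron 14, with counts of 0, 0 and 2 in WT against 11, 25 and 30 in prmt5. Intron 14 thus passed the filter only through its prmt5 counts. With the filter on WT counts, only 3 of the 8 raised introns of PHYLLO could be tested, and all 3 were raised. Its lowered intron 11 had counts of 29, 5 and 24 in WT against 2, 11 and 3 in prmt5. As usage that was 0.53%, 0.16% and 0.38% against 0.02%, 0.16% and 0.03% (log2 change -2.53, SE 0.49, adjusted p 9.99e-05). Here WT replicate 2 and prmt5 replicate 2 were close to each other and the other libraries far apart. AT4G38350, of the Patched family of sterol-sensing membrane proteins, had 7 raised introns of 21 and 1 lowered. With the filter on WT counts, 5 of these 7 could be tested, and all 5 were raised. The call of the lowered intron was lost in 7 of 17 alternative settings. Of the raised ones, intron 21 lost its call in 9 of 16 settings, intron 23 in 5 of 17, intron 31 in 3 of 17 and intron 14 in 3 of 15.

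**Figure D4:**
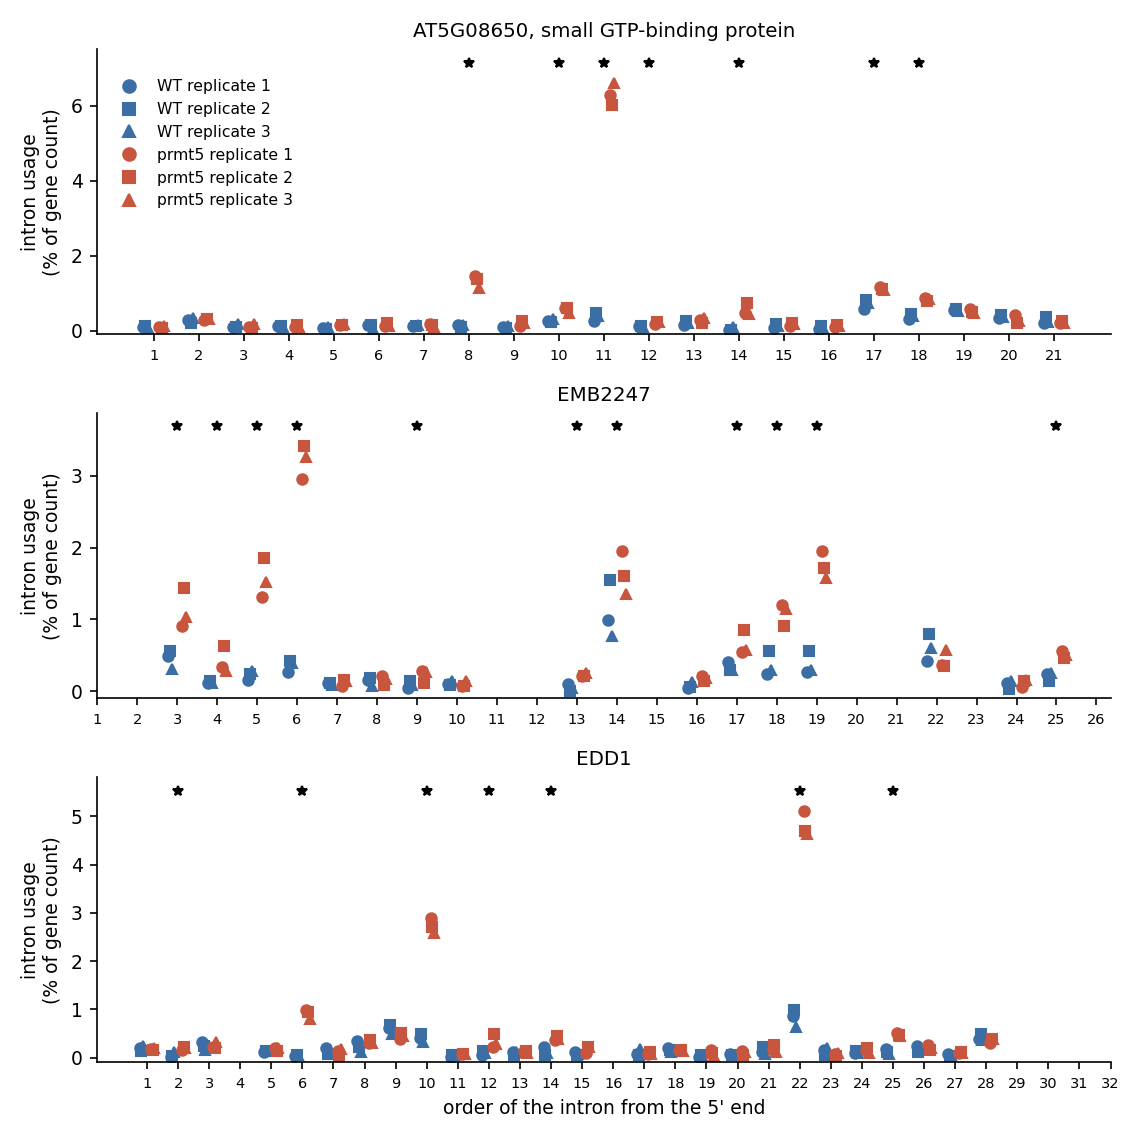
Usage of each tested intron (y axis, % of the gene count) by its order from the 5' end (x axis) in AT5G08650, EMB2247 and EDD1. Each point is a library and a star marks an intron at an adjusted p under 0.05; introns without points did not reach the count filter. In AT5G08650 intron 11 reaches 6.62% while its neighbours stay under 1%.

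The other lowered introns with the smallest p were intron 3 of AT2G28320, intron 7 of REV1 and intron 4 of GLU2. AT2G28320, a protein with PH and START domains, had counts of 21, 18 and 22 in WT against 8, 6 and 9 in prmt5 (log2 change -1.63, SE 0.39, adjusted p 0.0013), with no overlap. REV1 (AT5G44750), a DNA polymerase that copies past damage, had counts of 48, 16 and 37 against 41, 27 and 45. Its gene count rose from 64.2 ± 1.6 to 154 ± 7.8 CPM, and the call was lost without the gene offset (adjusted p 0.70) and without WT replicate 1 (0.11). GLU2 (AT2G41220) had 11, 5 and 14 counts against 1, 3 and 3, and its adjusted p of 0.0072 was 0.056 in DESeq2.

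Some genes with many tested introns had no changed intron. AT4G02480, an AAA-type ATPase, had none among 19 tested, and its summed usage was 2.12% ± 0.18 in WT and 2.38% ± 0.36 in prmt5. SUS2 (AT1G80070), the Arabidopsis PRP8 at the core of the spliceosome, had none among 16, at 1.04% ± 0.11 and 1.14% ± 0.083. TPL (AT1G15750), the co-repressor TOPLESS, which overlaps AT1G15740, had none among 14, at 1.63% ± 0.12 and 1.82% ± 0.15. XIF (AT2G31900), a myosin, also had none among 14, but its usage was 29.5% ± 2.7 and 42.6% ± 2.8. XIF was at 17.3 ± 0.73 CPM in WT, the lowest of these 4 genes. It overlaps AT2G31902, and reads of the overlap cannot be told apart here.

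The genes with the most intron rows were ATM (AT3G48190, 78 rows), the kinase that signals DNA breaks, the midasin-like AT1G67120 (74) and AT4G17140 (67), a protein with a PH domain. ATM had 11 introns tested and 5 raised, and its summed usage was 5.41% ± 0.039 in WT and 11.4% ± 1.2 in prmt5. AT1G67120 had 1 tested and none raised, and AT4G17140 had 8 tested and 1 raised. Most introns of these 3 genes, which have 62, 64 and 54 in the set, did not reach the filter. ATM overlaps AT3G48195, and its counts are uncertain.

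Gene families that are rich in introns were counted by role, from lists chosen with earlier results of these data known. Among the PIKK kinases, 8 of 24 tested introns were raised, in ATM and TOR, with a median log2 change of 0.68 against 0.37 over all introns tested. The raised share over all introns tested was 21.6%. Among large subunits of nuclear RNA polymerases 5 of 23 were raised, in NRPA1, NRPA2, NRPC1 (which overlaps AT5G60050) and NRPC2, and none of 8 in NRPB2 of RNA polymerase II. In the SMC family, the ring proteins that hold or repair chromosomes, 9 of 17 were raised, among them 3 of 7 in RAD50 and 2 of 4 in MIM. MIM had a summed usage of 4.79% ± 0.052 in WT and 12.5% ± 0.67 in prmt5, and it overlaps AT5G61455.

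Against the same 21.6% of all introns tested, chromatin remodellers had 9 of 53 raised, with a median of 0.33, and 3 of these were in INO80. Dicer-like genes, which cut double-stranded RNA into small RNAs, had 5 of 10, 3 of them in DCL4 and 2 in DCL2, which overlaps AT3G03305. DNA polymerases and mismatch repair genes had 1 of 7, and exportins and importins 5 of 23, 3 of them in XPO1A. Clathrin heavy chains and myosins had 19 of 120 with a median of 0.21, and large metabolic enzymes 7 of 54 with a median of 0.13 and 1 lowered, in GLU2. Summed over all introns of a list and with no filter, usage was higher in every prmt5 than in every WT library in all 9 lists. It ran from 1.51% ± 0.051 against 1.83% ± 0.10 for metabolic enzymes to 3.39% ± 0.41 against 5.73% ± 0.50 for the SMC family.

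The junction counts hold joins other than the annotated ones. Junctions lacking the annotated mark that use 1 end of an intron of the set were 0.58%, 0.61% and 0.57% of the junction counts in WT and 0.76%, 0.71% and 0.71% in prmt5, over 4193 junctions. The groups did not overlap (exact permutation p 0.1). Unannotated junctions from the start of one intron to the end of another, which leave out the exons between, were 0.04%, 0.04% and 0.04% in WT and 0.05%, 0.04% and 0.04% in prmt5, over 207 junctions, and the groups overlapped (p 0.3).

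The gene counts, the denominator of usage, were also higher in prmt5. Of 486 genes with many introns tested, 216 (44.4%) were higher, against 17.9% of all genes tested, and 16 (3.29%) were lower, against 15.4%. The median log2 change was 0.20 against 0.01 over all genes, and 18 of the higher genes changed at least 2-fold. Lower genes numbered 32 without WT replicate 2, and 10 without WT replicate 3 or without prmt5 replicate 1. The mean log2 CPM of the set above that of other genes was 1.67, 1.501 and 1.65 in WT and 1.78, 1.87 and 1.84 in prmt5, with no overlap (difference 0.23, exact permutation p 0.1). WT replicate 2, the library with the steepest fall of exon counts, was the lowest. In bulk RNA from whole plants, a change in the makeup of cells and a change of RNA per cell cannot be told apart.

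The share of higher genes was about the same with no intron and with 1, and larger in each class beyond. It was 10.0% with no intron, 9.86% with 1, 14.5% with 2 to 4, 22.2% with 5 to 9 and 33.6% with 10 to 19. Genes with many introns are also long. Among genes with an effective length of 3117 to 4688 bases, the lower and upper quartiles of the set, the shares were 31.9%, 17.2%, 13.02%, 22.4%, 38.9% and 40.4% in the same order. At similar length the share thus did not grow steadily, and the share of higher genes was larger with no intron than with 1 to 9.

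**Figure D5:**
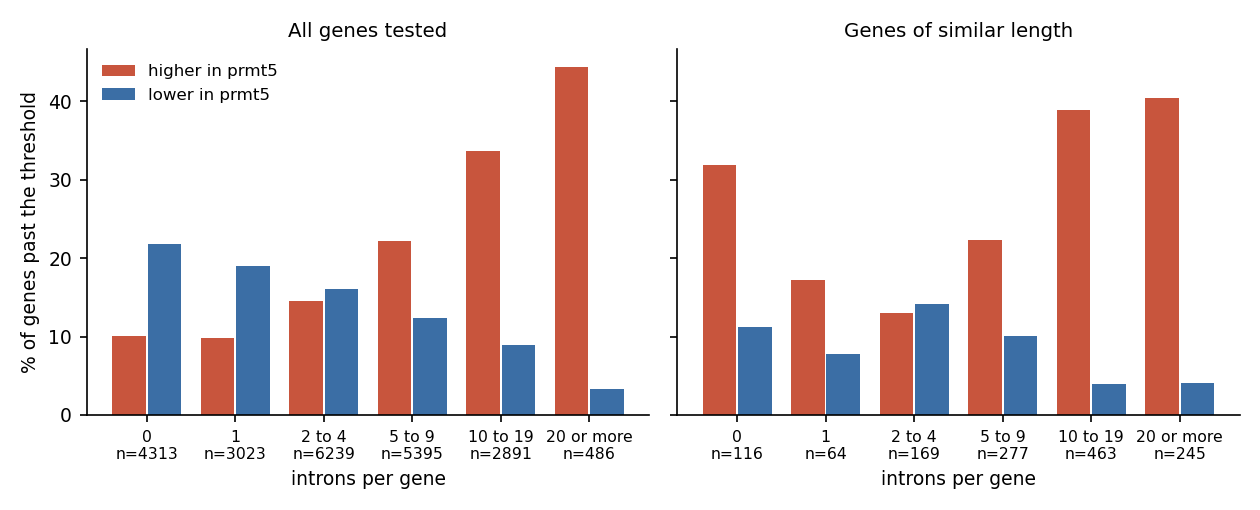
Percent of genes with higher or lower counts in prmt5 at an adjusted p under 0.05 (y axis) by introns per gene (x axis, with the number of genes), for all genes tested (left) and for genes with an effective length of 3117 to 4688 bases (right). On the left the higher share is 10.0% with no intron, 9.86% with 1 and 44.4% with 20 or more, and the lower share goes from 21.8% to 3.29%, while on the right genes with no intron stand at 31.9% higher.

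Higher expression and raised introns occurred in the same genes only in part. Of 323 genes with a raised intron 160 (49.5%) were higher, and of 108 genes with tested but no raised introns 42 (38.9%) were. Genes with more counts reach the threshold more often in both tests, and the part of this was not tested. ACC2 (AT1G36180), a plastid acetyl-CoA carboxylase, had no tested intron, and its level went from 15.3 ± 0.98 to 61.3 ± 6.1 CPM, a rise of 2.00 on the log2 scale (SE 0.08, adjusted p 8.6e-08). AT2G47410 rose from 55.1 ± 5.7 to 171 ± 5.5 CPM and PHYLLO from 83.4 ± 3.6 to 158 ± 8.4 CPM.

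By list, 4 of 4 PIKK kinases, 5 of 5 RNA polymerase subunits, 3 of 5 SMC genes, 4 of 7 chromatin remodellers, 1 of 3 Dicer-like genes and 5 of 7 DNA polymerases and mismatch repair genes were higher, and none of these was lower. The exportins and importins had 2 of 3 higher and the metabolic enzymes 2 of 4. These counts stand beside 44.4% of all genes with many introns and 17.9% of all genes tested. The PIKK and polymerase genes changed by log2 0.30 to 0.74, but NRPB2 lost its call without prmt5 replicate 2 (adjusted p 0.051) and AT2G17930 without prmt5 replicate 2 or 3 (up to 0.073). Of 19 clathrin heavy chains and myosins 5 were higher and 2 lower. The higher ones were the myosins XIJ (log2 change 1.28), MYA2 (0.67, overlapping AT5G43910), XID (0.54), MYA1 (0.35) and XI-I (0.27). The lower ones were ATM2 (AT5G54280), from 171 ± 10 to 106 ± 7.7 CPM, and VIIIA (AT1G50360), from 37.1 ± 3.2 to 29.2 ± 0.47 CPM, and the former overlaps AT5G54270. The calls of ICU2, GLU2, XID, CHR5 (AT2G13370), CHR17 (AT5G18620) and XPO1A (AT5G17020) were lost in 1 to 9 of 13 alternative settings.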

How the data were processed

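RNA-seq of 3 WT and 3 prmt5 libraries was analysed, grouped by the sample titles. The authors deposited raw counts, whole numbers of reads per gene, exon bin, intron row and junction, which were used as deposited. Reads were aligned with STAR to TAIR10, per the submitters' processing notes. The counting program and its strand setting were not given in the sources used here, so genes that overlap another (79 of the 505 loci, 1698 introns) are uncertain. The labels do not say whether replicates were separate cultures, so p-values measure only the spread between these samples, which may be technical. Reads carry no molecular identifiers.

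Gene counts leave out intron reads, since an intron row exceeded its gene count in 258 genes and an exon bin in 0. Usage is the intron count over the gene count of the same library. The tests of introns and genes were run in edgeR 4.0.16 under R 4.3.3 (quasi-likelihood F test, robust fits, genotype as the only term, Benjamini-Hochberg adjustment over the whole table). Genes used TMM and the default filter. Introns used the log of the gene count plus 0.5 as offset. SE is the absolute log2 change over the square root of F. DESeq2 1.42.0 was an alternative. Values per library were compared by exact permutation over libraries, two-sided. Alternatives changed the tool, offset, scaling, filters, call rule, limit on intron number, overlapping genes and libraries.

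The score of a 5' splice site adds log2 odds of 3 exon and 6 intron bases, with weights from 93739 introns. At annotated junctions with known strand, 99.0% of 104384 introns had GT and AG ends in TAIR10.1, the reference build used for sequences, and 0.0% had them after a shift of 1 base. Names came from its RefSeq table, which lists all 505 loci, 309 with a symbol.

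Named introns were the 8 raised and 4 lowered introns with the smallest p (1 per gene). Named genes were the 5 with the most raised introns and the 4 with the most tested introns among those with none changed. The 3 genes with the most intron rows and the listed families were also named. The members, lists and tests were chosen with earlier results of these data known. In simulated data with the real means and library sizes, 200 of 53291 introns were changed. Of those changed by 1 on the log2 scale 26% were recovered, and of those changed by 1.5 68%, with 4.08% false calls. In the real data 11533 of the 53291 introns were called raised. The adjustment of p depends on how many introns change, so these shares do not give the recovery in the real data. Replicates of a genotype differed beyond sampling noise. Python 3.11.15, numpy 2.4.6, pandas 2.3.3 and matplotlib 3.10.9 were used.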

Additional observations from a re-analysis of the deposited data

How the results depend on the processing

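Summed usage, the contrast of weak and strong 5' splice sites, unannotated junctions and mean expression kept their direction in every setting run. The log2 ratio to genes with fewer introns turned to -0.0096 with at least 25 introns per gene. First against later introns turned to 0.036 as a mean over genes and 0.013 without overlapping genes, and leaving out 1 library gave -0.25 to 0.064. The first against the last stretch ranged from -0.014 to 0.28, and from -0.043 to 0.086 relative to exon bins. With at least 25 introns per gene, 334 introns were raised and 8 lowered, 138 genes had 1 or more and 12 had 5 or more raised introns, and 95 genes were higher and 3 lower. At a minimum mean of 20 counts the first 4 numbers were 314, 7, 172 and 5, and with the filter on WT counts 417 were raised and 12 genes had 5 or more. Lowered introns numbered 86 without the gene offset, 86 with RLE size factors, 77 with the median change removed, 9 at a 2-fold change and 3 in DESeq2, and 10 to 19 without 1 library (11 without WT replicate 1, 10 without prmt5 replicate 1). Genes with 5 or more raised introns numbered 11 with the median removed, 16 in DESeq2 and 18 to 27 without 1 library. At a 2-fold change 18 genes were higher and 1 lower, and lower genes ranged from 10 to 32 without 1 library. The limits on introns per gene and on counts change which introns or genes are counted, and the 2-fold limit changes the call rule. The cause of the other changes was not tested.

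Libraries with the same replicate number did not deviate together (correlations of -0.17, -0.17 and -0.11), so the numbers do not pair the samples. With a replicate block 728 introns were raised and 14 lowered, 178 genes were higher and 11 lower, 315 genes had 1 or more and 25 had 5 or more raised introns, and with 3 pairs the sign-flip test allows no p under 0.25. Leaving out both libraries with the steepest fall of exon counts, a setting chosen after seeing the data, gave 676 raised and 15 lowered introns. Depth limits the test to 32.1% of the introns, those in better expressed genes and nearer to the 3' end.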
